A study of Mus musculus with 6 samples.

Results

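The genes of the cytosolic ribosome were followed in open-chromatin maps of bone marrow macrophages from old and young mice. They were taken from the RefSeq annotation of GRCm38.p6 as every protein-coding gene of chromosomes 1 to 19 and X whose symbol is Rpl or Rps with a number and, where present, letters, together with Rpsa, Rplp0, Rplp1 and Rplp2. Kinases of the Rps6k type were left out. This gave 84 of 21631 protein-coding genes, of which 32 belong to the small subunit, 49 to the large subunit and 3 to the P-stalk. By their suffix (l, al or rt), 8 of the 84 are copies of another ribosomal protein gene (Rpl3l, Rpl10l, Rpl32l, Rpl36al, Rpl37rt, Rpl39l, Rps27l and Rps27rt), and the other 76 are called core genes here.

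The old group was wild-type BALB/c mice over 78 weeks of age and the young group was wild-type BALB/c mice of 3 weeks, with 3 libraries per age. Cells from crushed long bones were grown as adherent cultures in medium with serum and typed as F4/80+CD169+ macrophages, and each library was made from 50000 cells. Omni-ATAC was used, a form of ATAC-seq in which a transposase cuts accessible DNA, so that a peak marks a stretch of open chromatin and not RNA. The labels do not say whether the libraries of one age came from separate mice or cultures, so p-values here speak only of the variation among these libraries, part of which may be technical.

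The deposited lists held 245667, 227978 and 215947 peaks in Old 1, 2 and 3, against 243924, 223018 and 254410 in Young 1, 2 and 3, and covered 48.2 to 63.8 Mb in the old and 52.4 to 66.1 Mb in the young libraries. Read depth is unknown, and an absent peak means only that none was called. All 10 macrophage genes looked at, Adgre1 (F4/80), Siglec1 (CD169) and Csf1r among them, had a peak within 1 kb of a gene end in all 6 libraries. Gene-end peaks in all 6 libraries were also present at 4 of 6 B-cell, 2 of 6 T-cell and 3 of 6 neutrophil genes. They were present at 6 of 6 stromal, 2 of 4 endothelial, 2 of 4 erythroid and 3 of 4 osteoclast genes as well. Over all protein-coding genes the share was 66.0%. Cd3g, Lck, Mpo, Gata1 and Hbb-bs had no gene-end peak in any library. Whether the cultures held other cell types was not tested, and if they did, fewer cells of a type and a weaker signal per cell cannot be told apart.

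A cytosolic ribosome is built from ribosomal RNA and one copy of nearly every ribosomal protein, so the genes for these proteins are active in all dividing and growing cells and are kept in step with each other. Their mRNAs usually begin with a cytosine followed by a run of pyrimidines, the 5′ terminal oligopyrimidine (TOP) motif, through which mTOR and Larp1 control their translation. Many of the genes carry small nucleolar RNAs in their introns, and in humans loss of one copy of several of them causes Diamond-Blackfan anaemia, a failure of red cell production.

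Promoter stretches of 6 of these genes are shown as examples of starts with and without a peak and of the letters counted at the end, and not as places where the ages differed. Each runs from 120 bases before to 30 bases from the start listed by RefSeq in GRCm38.p6, 5′ to 3′ on the gene's own strand. Capitals mark CCGGAAG (the core of the ETS family motif), the palindrome TCTCGCGAGA, and a run of 5 or more C or T that holds the listed start.
Rps19: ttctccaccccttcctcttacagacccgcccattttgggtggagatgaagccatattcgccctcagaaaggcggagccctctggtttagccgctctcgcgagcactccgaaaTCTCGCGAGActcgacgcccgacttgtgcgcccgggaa
Rps6: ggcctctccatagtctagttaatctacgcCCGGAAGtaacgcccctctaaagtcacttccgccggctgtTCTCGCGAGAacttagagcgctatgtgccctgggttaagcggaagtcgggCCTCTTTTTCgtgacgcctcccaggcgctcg
Rpl5: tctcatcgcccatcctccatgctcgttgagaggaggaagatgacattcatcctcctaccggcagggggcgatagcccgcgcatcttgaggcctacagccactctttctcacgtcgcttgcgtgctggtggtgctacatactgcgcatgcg
Rpl11: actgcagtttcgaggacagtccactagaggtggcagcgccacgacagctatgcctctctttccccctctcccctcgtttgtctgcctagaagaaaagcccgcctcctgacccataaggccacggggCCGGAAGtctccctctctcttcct
Rpl39l: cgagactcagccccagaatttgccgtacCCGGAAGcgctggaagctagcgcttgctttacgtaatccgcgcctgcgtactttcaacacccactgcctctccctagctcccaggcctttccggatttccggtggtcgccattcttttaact
Rpl10l: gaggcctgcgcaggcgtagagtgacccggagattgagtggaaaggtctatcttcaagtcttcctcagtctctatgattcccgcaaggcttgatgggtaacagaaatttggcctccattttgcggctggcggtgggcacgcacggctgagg
The stretches lie at chr7:24884472-24884621 on the plus strand (Rps19), chr4:86857338-86857487 on the minus strand (Rps6), chr5:107900408-107900557 on the plus strand (Rpl5), chr4:136053364-136053513 on the minus strand (Rpl11), chr16:10170108-10170257 on the plus strand (Rpl39l) and chr12:66284372-66284521 on the minus strand (Rpl10l). A peak lay over the listed start in 6 of 6 libraries at Rps19, Rps6, Rpl5, Rpl11 and Rpl39l, and in 0 libraries at Rpl10l.

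Open chromatin at the gene ends of the ribosomal protein genes was found in nearly every gene and in both ages. A peak within 1 kb of either gene end was called for 79, 78 and 78 of the 84 genes in Old 1, 2 and 3 and for 79, 78 and 78 in Young 1, 2 and 3. In all 6 libraries it was called for 78 genes (92.9%), against 66.0% of all protein-coding genes. Among the 76 core genes, 74 (97.4%) had one in every library, and among the 8 copies 4 had. Rps27l is counted among these copies through the edge of a peak, with only 38 to 55 bp inside the windows. With the lists cut to the 50000 peaks of highest −log10 q in each library, 76 of the 84 genes still had a gene-end peak in every library (90.5%), against 47.7% of all genes.

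The exceptions were Rpl10l, Rpl17, Rpl32l, Rps2 and Rps27rt, with no gene-end peak in any library, and Rpl37rt, with a weak one in Old 1 and in Young 1 only. Rps2 and Rpl17, the core genes among them, encode a small-subunit protein at the mRNA entry side and a large-subunit protein by the exit tunnel. Both had a peak inside the annotated span but more than 1 kb from its ends. At Rps2 (chr17:24718121-24721927, plus strand) the peak covered the start listed by RefSeq and measured 749, 743 and 747 bp in Old 1, 2 and 3 and 754, 740 and 870 bp in Young 1, 2 and 3. It ranked in the top 1.72% to 1.91% of the old lists and the top 1.24% to 1.52% of the young lists. The start of Rps2 was thus open in every library of both ages.

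**Figure D1:**
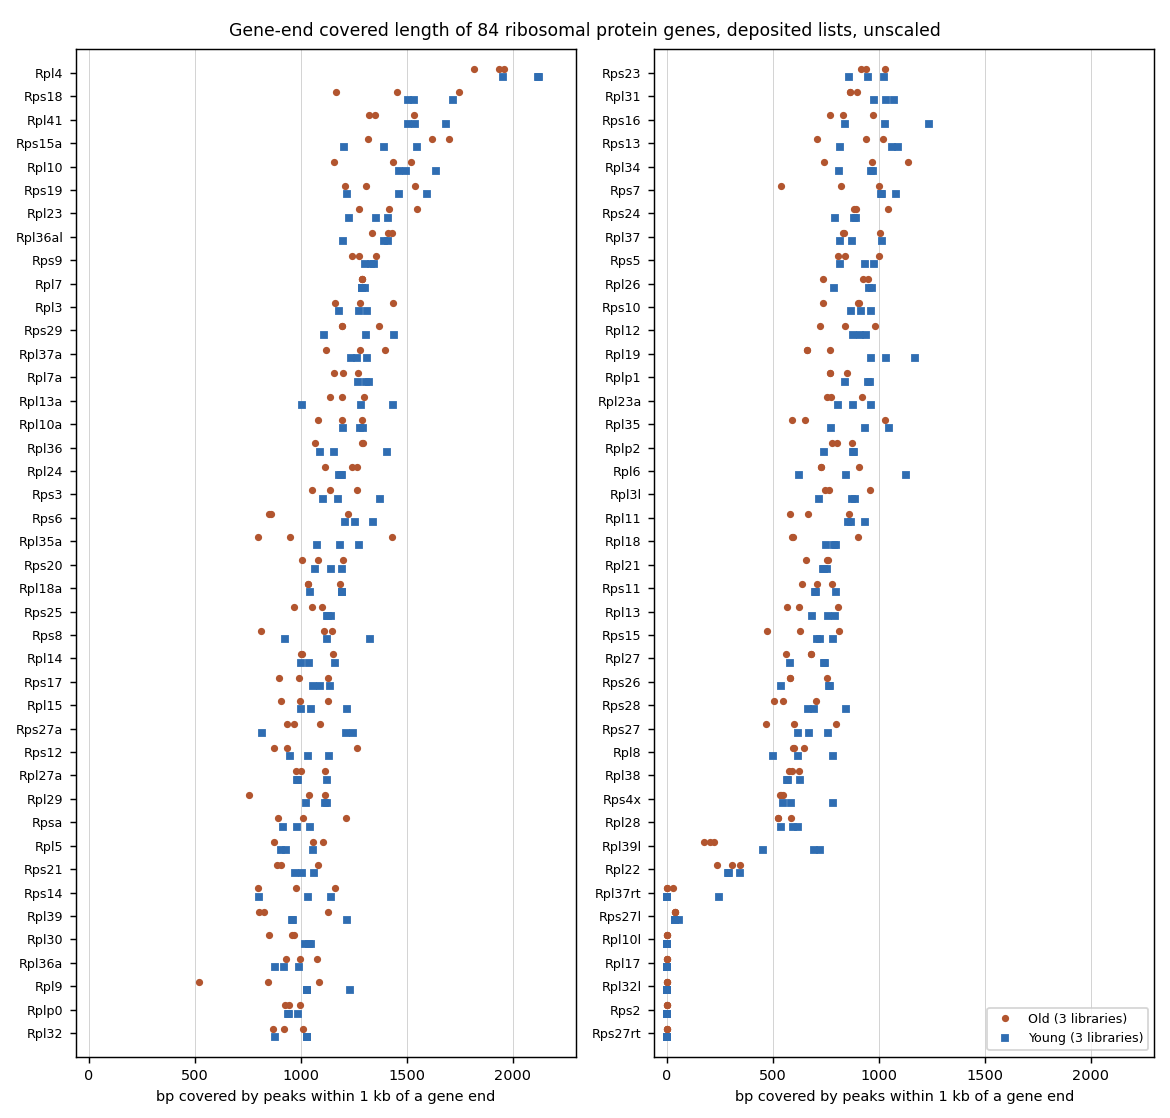
Base pairs covered by deposited peaks within 1 kb of either gene end (x axis, bp, not scaled) for each of the 84 ribosomal protein genes, ordered by their mean over the 6 libraries. Each circle is an old and each square a young library. Old and young points overlap in most rows, Rpl4 stands at the top with 1819 to 2123 bp, and the rows in which all old points lie below all young ones include Rpl39l (177 to 223 bp in old and 454 to 722 bp in young libraries) and Rpl19 (663 to 771 bp in old and 965 to 1169 bp in young libraries).

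Of the 84 genes, 64 have a start in the RefSeq promoter table. A peak lay over a listed start in 59 of these 64 genes in each of the 6 libraries (92.2%), while 54.9% of 17274 protein-coding genes had one in all 6. The 5 genes with an uncovered start in every library were Rpl3l, Rpl10l, Rpl32l, Rpl37rt and Rps27rt, and all 5 are copies. Rpl10l and Rpl3l are known as copies used in the testis and in striated muscle in place of Rpl10 and Rpl3. Rpl3l did have a strong gene-end peak in each library, but it lay at the far end of the gene, more than 8 kb from the gene's start and within 1 kb of the neighbouring gene Msrb1. Among the copies, the listed start was open in Rpl36al, Rps27l and Rpl39l, the last of which is best known from male germ cells.

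The gene-end peaks were also among the strongest of each list. Ranked by the authors' −log10 q within its own list, the strongest gene-end peak of a ribosomal protein gene had a median rank in the top 1.90%, 2.36% and 2.49% in Old 1, 2 and 3 and in the top 1.74%, 1.68% and 1.59% in Young 1, 2 and 3. Over all genes with a gene-end peak the medians were 7.33%, 7.50% and 7.92% in the old and 6.69%, 6.88% and 7.13% in the young libraries. Both sets of medians thus stood at weaker ranks in all 3 old libraries than in any young library, and ranks from lists of different lengths show no change by themselves. Ranked by the authors' fold enrichment instead, the members' medians overlapped between the ages. They were 5.42%, 3.4% and 4.21% in Old 1, 2 and 3 and 4.06%, 3.28% and 5.42% in Young 1, 2 and 3. The strongest peak lay in the top 10% of its list for 76, 72 and 71 ribosomal protein genes in the old and for 75, 75 and 76 in the young libraries, against 38.8% to 42.1% of all genes.

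The authors' fold enrichment over the local background of each library, which belongs to single peaks, had a median over the ribosomal protein genes of 7.57, 7.26 and 7.09 in Old 1, 2 and 3 and of 7.58, 7.16 and 7.48 in Young 1, 2 and 3. Rps26, a small-subunit protein that touches the mRNA near the exit site, had the highest mean, 12.8 ± 0.247 in old and 13.1 ± 0.81 in young libraries (SD, n = 3 each). Rpl27, a large-subunit protein, followed with 11.4 ± 0.469 in old and 12.05 ± 0.846 in young libraries. Rpl19 stood at the low end among the core genes, with 3.55 ± 0.07 in old and 3.44 ± 0.439 in young libraries. The gene overlaps Cacnb1 at its start. A stronger peak lay inside the Rpl19 span in all 6 libraries, 4382 to 5375 bp past the span's start. This peak lies outside the gene-end windows, and its fold enrichment was 6.0 to 6.55 in old and 6.02 to 6.12 in young libraries. The strongest gene-end peak of the members had a median width of 875, 747 and 741.5 bp in Old 1, 2 and 3. In Young 1, 2 and 3 it was 880, 815.5 and 873 bp.

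**Figure D2:**
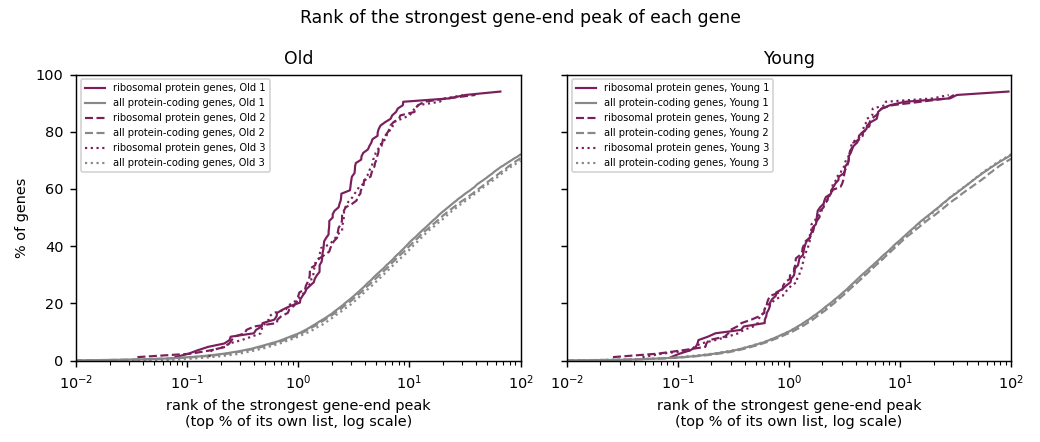
Cumulative share of genes (y axis, % of all members or of all protein-coding genes) whose strongest gene-end peak lies within the given top percentage of its own list (x axis, log scale), with the old libraries on the left and the young on the right. The ribosomal protein genes (purple) climb to 84.5% to 90.5% of genes by a rank of 10% in each library, and all protein-coding genes (grey) reach 38.8% to 42.1%.

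Among the small-subunit genes, Rps19, the gene most often mutated in Diamond-Blackfan anaemia in humans, was covered by 1541, 1209 and 1309 bp of gene-end peaks in Old 1, 2 and 3 and by 1462, 1218 and 1596 bp in Young 1, 2 and 3, before scaling. Rps6, the protein that S6 kinases phosphorylate downstream of mTOR, was covered by 1221, 858 and 849 bp in Old 1, 2 and 3 and by 1211, 1342 and 1257 bp in Young 1, 2 and 3. Rps14, lost on one copy in the human 5q- syndrome, was covered by 1163, 979 and 798 bp in Old 1, 2 and 3 and by 1142, 805 and 1035 bp in Young 1, 2 and 3. Old and young libraries overlapped at all 3 genes. Rpsa, whose product also serves as a laminin receptor, was covered by 1212, 893 and 1013 bp in Old 1, 2 and 3 and by 1044, 917 and 983 bp in Young 1, 2 and 3. The widest small-subunit gene was Rps18, with 1748, 1455 and 1168 bp in Old 1, 2 and 3 and 1718, 1504 and 1535 bp in Young 1, 2 and 3.

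Among the large-subunit genes, Rpl4, which lines the exit tunnel, had the widest cover of all, 1959, 1819 and 1938 bp in Old 1, 2 and 3 and 2121, 1954 and 2123 bp in Young 1, 2 and 3. Its window is shared with the neighbouring genes Snapc5 and Zwilch. Rpl41, the smallest ribosomal protein, followed with 1534, 1324 and 1351 bp in Old 1, 2 and 3 and 1684, 1505 and 1538 bp in Young 1, 2 and 3. The P-stalk, which recruits elongation factors, was covered in all 3 of its genes. Rplp0 had 946, 928 and 997 bp in Old 1, 2 and 3 and 945, 939 and 986 bp in Young 1, 2 and 3, the narrowest spread among the genes given here. Rplp1 had 770, 849 and 769 bp in Old 1, 2 and 3 and 956, 948 and 840 bp in Young 1, 2 and 3. Rplp2 had 875, 801 and 781 bp in Old 1, 2 and 3 and 877, 743 and 882 bp in Young 1, 2 and 3. Unscaled lengths follow the length of each list, so the ages were compared on scaled values.

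For that comparison each gene's covered length was taken relative to the total of its library and fitted as log2(bp + 200) with limma over all genes, old minus young. Differences were called at a Benjamini-Hochberg adjusted p under 0.05, and on this scale those of sparsely covered genes come out too small. At the gene ends no ribosomal protein gene was called. On the deposited lists, 77 of the 84 genes passed the filter of a mean of 200 bp and 0 were called, against 0 of 13836 genes tested (0%), while 7 of 77 had an unadjusted p under 0.05 (9.09%), against 8.77% of all genes. On the lists of 50000 peaks, 75 passed and 0 were called, against 0.411% of 10938 genes (0.32% higher and 0.0914% lower in old libraries), and 2 of 75 had an unadjusted p under 0.05 (2.67%), against 7.72%.

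The members' log2 changes at the gene ends lay close to 0, with a median of 0.05 on both kinds of list, against 0.01 and 0.02 over all genes tested. On the deposited lists 54 of 77 changes were above 0 (70.1%), against 53.6% of all genes, and on equal-length lists 50 of 75 (66.7%), against 56.0%. Without scaling, the deposited-list median was -0.071 for the ribosomal protein genes and -0.11 for all genes, so its sign rests on the scaling. Its distance to the median of all genes moved with the window. With 500 bp on each side of the gene ends the medians were 0.031 and 0.024 on the deposited lists, and on equal-length lists 0.025 for the ribosomal protein genes and 0.028 for all genes. Old and young values did not overlap, with old above, in 11 of 77 genes, against 6.78% of all genes, and with old below in 4, against 6.61%. On equal-length lists these counts were 3 of 75 above, against 6.75%, and 3 below, against 6.23%. These counts share libraries and, in part, peaks, and carry no test.

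**Figure D3:**
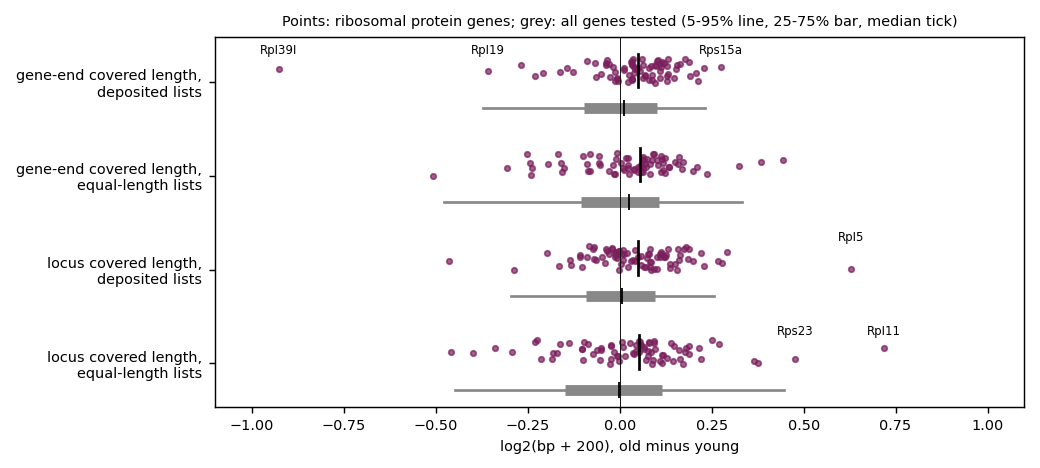
Log2 change of covered length, old minus young (x axis, log2(bp + 200)), for the ribosomal protein genes (points, black bar at their median) and all genes tested (grey, line from the 5th to the 95th percentile, bar over the interquartile range, tick at the median) in the 4 comparisons. Most points lie within the grey range around 0, and the named points have an unadjusted p under 0.01, of which Rpl5 alone passed the adjusted threshold.

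The largest change at the gene ends was that of Rpl39l on the deposited lists. Scaled cover was 205.1, 203.7 and 229.1 bp in Old 1, 2 and 3 and 647.6, 463.7 and 655.8 bp in Young 1, 2 and 3. All 3 old values lay below all 3 young values, with a log2 change of -0.93 (SE 0.18), which did not pass after adjustment (adjusted p = 0.208, limma). The difference lay on the upstream side of the listed start shown above. There, from -784 to -400 bp of the span's start (chr16:10169413-10169797), 0 bp were covered in each old library, against 302, 159 and 385 bp in Young 1, 2 and 3, and the peak over the start was 223, 177 and 204 bp wide in Old 1, 2 and 3, against 393, 295 and 337 bp in Young 1, 2 and 3. The upstream peaks of the young libraries were weak, at ranks of 67.6% to 81.2% of their lists, and on equal-length lists the gene did not pass the filter.

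The other members with the smallest p at the gene ends of the deposited lists were Rps15a, Rps24 and Rpl23 with higher and Rpl19 and Rps6 with lower mean cover in old libraries. Rps15a, a small-subunit protein, had 1561.4, 1514.2 and 1820.7 bp in Old 1, 2 and 3 and 1299.9, 1228.8 and 1408.8 bp in Young 1, 2 and 3, a log2 change of 0.27 (SE 0.09, adjusted p = 0.398, limma). Rpl19, a large-subunit protein that bridges the subunits, had 709.0, 762.8 and 744.7 bp in Old 1, 2 and 3 and 961.7, 1194.0 and 876.5 bp in Young 1, 2 and 3, a log2 change of -0.36 (SE 0.11, adjusted p = 0.394, limma). The scaled old values stood apart from the young ones at both genes, but neither difference passed the threshold. Before scaling, Old 2 (1316 bp) stood below Young 1 (1395 bp) and Young 3 (1551 bp) at Rps15a, while at Rpl19 the ages stayed apart. At Rpl19 the gene-end windows leave out the stronger peak inside its span. Rps6 had 1122.8, 987.2 and 953.6 bp in Old 1, 2 and 3 and 1128.5, 1370.7 and 1141.8 bp in Young 1, 2 and 3 after scaling, a log2 change of -0.21 (adjusted p = 0.573, limma), with Old 1 and Young 1 next to each other.

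On equal-length lists the smallest p values belonged to Rpl18 and Rps24, both Diamond-Blackfan anaemia genes in humans. Rpl18 had 629.6, 405.4 and 385.7 bp in Old 1, 2 and 3 and 733.9, 754.7 and 745.5 bp in Young 1, 2 and 3, a log2 change of -0.51 (SE 0.15, adjusted p = 0.478, limma). Rps24 had 967.7, 875.2 and 861.1 bp in Old 1, 2 and 3 and 730.1, 781.8 and 544.6 bp in Young 1, 2 and 3, a log2 change of 0.32 (SE 0.12, adjusted p = 0.601, limma). The scaled values of the ages did not overlap at either gene, and the directions were opposite. Before scaling, Old 2 (775 bp) stood below Young 1 (782 bp) and Young 2 (777 bp) at Rps24, while at Rpl18 the ages stayed apart. Next came Rps29 (0.17) and Rpl36al (0.38) with higher and Rps6 (-0.16) and Rps7 (-0.24) with lower mean cover in old libraries, at adjusted p of 0.690, 0.703, 0.730 and 0.762 (limma).

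Over the wider locus, the gene with 10 kb on each side, Rpl5 was the only ribosomal protein gene to pass the threshold. Rpl5 binds 5S ribosomal RNA together with Rpl11, and the complex restrains Mdm2 and so stabilises p53 when ribosome assembly fails. On the deposited lists, where 83 of the 84 genes passed the filter of a mean of 500 bp, its locus (chr5:107900508-107909005 with its flanks) was covered by 1820.7, 1918.1 and 2186.7 bp in Old 1, 2 and 3 and by 1144.4, 1372.7 and 1109.3 bp in Young 1, 2 and 3. All old libraries stood above all young ones, and covered length rose by 0.63 on the log2 scale (SE 0.13, adjusted p = 0.0216, limma). This 1 call among 83 genes compares with 0.968% of 16943 genes called in either direction, 0.39% higher and 0.578% lower in old libraries, and 4 of the 83 had an unadjusted p under 0.05 (4.82%), against 12.8%.

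The change at Rpl5 did not lie at its promoter. The peak over the start (chr5:107900399-107901459) covered 1014, 872 and 1020 bp in Old 1, 2 and 3 and 865, 1057 and 859 bp in Young 1, 2 and 3, and the ages overlapped. An upstream region at chr5:107894560-107895194, from -5948 to -5314 bp of the span's start and in no annotated protein-coding gene, was covered by 409, 491 and 559 bp in Old 1, 2 and 3 and by 115, 91 and 120 bp in Young 1, 2 and 3. A region at chr5:107910309-107910519, inside the overlapping gene Dipk1a, was covered by 189, 144 and 147 bp in Old 1, 2 and 3 and by 50, 0 and 49 bp in Young 1, 2 and 3. In both regions all old values stood above all young values. The peaks of the upstream region ranked at 31.1% to 36.7% in the old lists and at 67.6% to 88.4% in the young lists, so none of them was among the 50000 strongest.

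The call at Rpl5 held with peaks at a −log10 q of at least 2 (log2 change 0.66, adjusted p = 0.0278, limma), but not on shorter lists or with narrower flanks. On equal-length lists its locus had 927.2, 916.9 and 1128.2 bp in Old 1, 2 and 3 and 768.0, 1091.1 and 755.4 bp in Young 1, 2 and 3, a log2 change of 0.16 (SE 0.16, adjusted p = 0.707, limma). Keeping only peaks at a −log10 q of at least 5 gave a change of 0.21 (adjusted p = 0.771), and 5 kb flanks, which leave the upstream region out, gave 0.32 (adjusted p = 0.363). The change was 0.48 without scaling (adjusted p = 0.430) and 0.63 without the filter (adjusted p = 0.271). It also missed the threshold without Old 2 (adjusted p = 0.051), Old 3 (0.105), Young 1 (0.0948) or Young 3 (0.0971), with the direction kept in each. Over all 14 alternatives run for it, the adjusted p ranged between 0.0185 and 0.771.

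**Figure D4:**
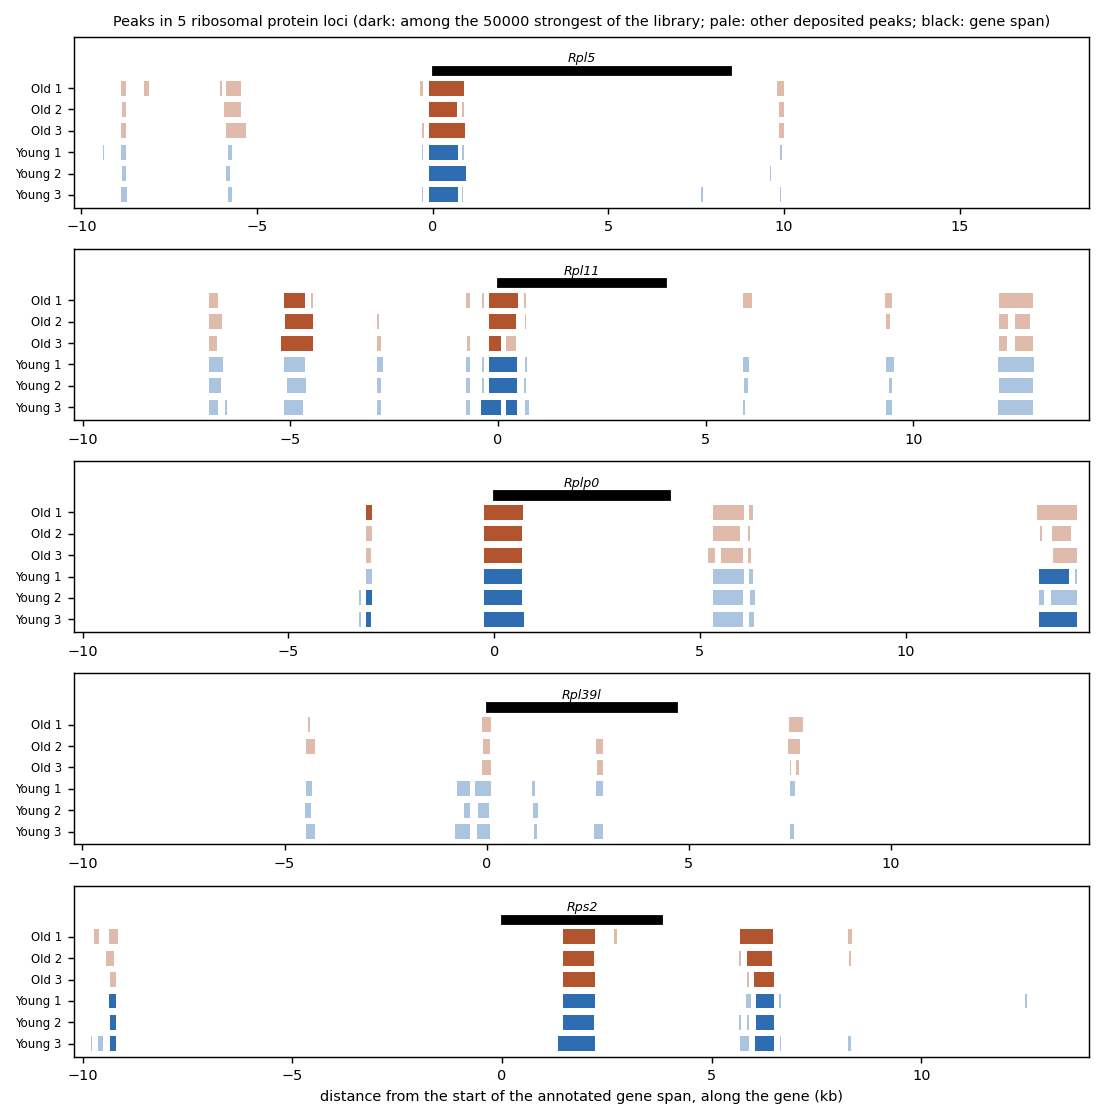
Peaks of the 6 libraries (rows, old above young) in the loci of Rpl5, Rpl11, Rplp0, Rpl39l and Rps2 against the distance from the start of the annotated span along the gene (x axis, kb), with peaks among the 50000 strongest of their library in dark and other deposited peaks in pale colour. At Rpl5 the pale upstream region from -5948 to -5314 bp is wider in the old rows, at Rpl11 the region from -5217 to -4466 bp is dark in the old rows and pale in the young rows, and at Rps2 the strong peak lies inside the span.

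In the same comparison on equal-length lists, 79 genes passed the filter and 0 were called, against 1.28% of 14380 genes (0.841% higher and 0.438% lower in old libraries), and 3 of 79 had an unadjusted p under 0.05 (3.80%), against 14.8%. The median log2 change at the loci was 0.05 on both kinds of list, against 0.01 and -0.0019 over all genes. Changes were above 0 in 53 of 83 genes on the deposited lists (63.9%), against 52.1% of all genes, and in 49 of 79 on equal-length lists (62.0%), against 49.6%. The ages did not overlap, with old above, in 12 of 83 genes on the deposited lists, against 8.63% of all genes, and with old below in 3, against 8.36%. On equal-length lists the counts were 10 of 79 above, against 9.88%, and 2 below, against 10.5%.

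Rpl11, the partner of Rpl5 in the 5S complex, came nearest to the threshold on equal-length lists. Its locus had 1096.4, 1489.2 and 1145.9 bp in Old 1, 2 and 3 and 635.7, 695.8 and 682.9 bp in Young 1, 2 and 3, a log2 change of 0.72 (SE 0.14, adjusted p = 0.0562, limma). On the deposited lists the same locus had 2549.3, 2810.7 and 2597.1 bp in Old 1, 2 and 3 and 2798.4, 2877.0 and 2426.5 bp in Young 1, 2 and 3, a log2 change of -0.02 (adjusted p = 0.954, limma), and the ages overlapped. A single region at chr4:136057859-136058610, from -5217 to -4466 bp of the gene's start, separated the lists. Its peaks ranked at 13.3%, 17.3% and 16.6% in Old 1, 2 and 3, inside the 50000 strongest, and at 22.0%, 31.7% and 23.2% in Young 1, 2 and 3, outside them. In the deposited lists it was covered in every library, by 548, 674 and 752 bp in Old 1, 2 and 3 and by 488, 442 and 457 bp in Young 1, 2 and 3, with all old values above all young ones. With the 20000 strongest peaks the Rpl11 change turned to -0.081.

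Rplp0, the base of the P-stalk, had the largest change to the other side on equal-length lists. Its locus had 985.8, 1055.7 and 1034.1 bp in Old 1, 2 and 3 and 1567.1, 1105.6 and 1871.5 bp in Young 1, 2 and 3, a log2 change of -0.46 (SE 0.17, adjusted p = 0.255, limma). The ages did not overlap after scaling, but before scaling Young 2 (1071 bp) stood below Old 1 (1078 bp). Young 1 and Young 3 stood highest, and theirs were the only peaks among the 50000 strongest in a region 13186 to 14169 bp past the start inside Gcn1, the activator of the amino acid starvation kinase Gcn2. On the deposited lists the log2 change of the locus was 0.01 (adjusted p = 0.982, limma), and on equal-length lists the sign turned with 20000 peaks (0.093) and with 5 kb flanks (0.024).

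**Figure D5:**
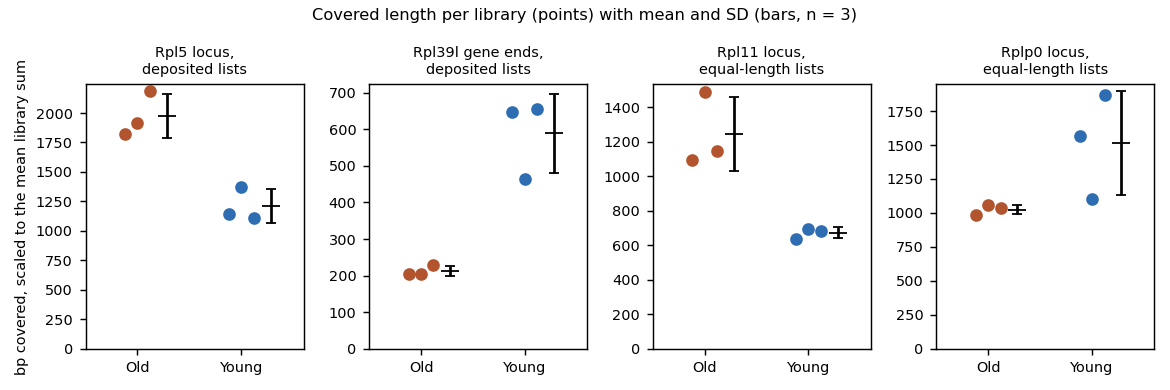
Scaled covered length per library (points, bp) with the mean and SD of each age (bars, n = 3) for the Rpl5 locus and the Rpl39l gene ends on deposited lists and the Rpl11 and Rplp0 loci on equal-length lists, with old left of young. The ages do not overlap in any of the 4 panels, and the difference passed the adjusted threshold at the Rpl5 locus alone.

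Further members with the smallest p over the loci of equal-length lists were Rps23, Rpl3l, Rpl39 and Rps16. Rps23, a small-subunit protein at the decoding centre, had 1402.7, 1640.5 and 1765.2 bp in Old 1, 2 and 3 and 1068.5, 968.3 and 1253.8 bp in Young 1, 2 and 3, a log2 change of 0.48 (SE 0.13, adjusted p = 0.143, limma), with no overlap of the ages. On the deposited lists Rpl13, with the next smallest p after Rpl5, had 1970.6, 2416.7 and 2297.1 bp in Old 1, 2 and 3 and 1699.1, 1912.6 and 1722.5 bp in Young 1, 2 and 3, a log2 change of 0.29 (SE 0.11, adjusted p = 0.253, limma). Rpl27 had 2434.5, 2392.0 and 2474.1 bp in Old 1, 2 and 3 and 1962.7, 2284.7 and 1754.8 bp in Young 1, 2 and 3, a log2 change of 0.27 (SE 0.11, adjusted p = 0.297, limma). Old values lay above young values at all 3 genes, and none passed the threshold. Rpl39l (-0.46), Rpl9 (-0.29) and Rps7 (-0.20) had lower mean cover of the locus in old libraries on the deposited lists, with adjusted p of 0.355, 0.464 and 0.598 (limma).

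By subunit the gene-end medians on the deposited lists were 0.03 for 29 small-subunit genes, 0.05 for 45 large-subunit genes and 0.10 for the 3 P-stalk genes. Over the loci of equal-length lists the P-stalk median was -0.29, with 0 of 3 changes above 0. There the medians were 0.05 for 30 small-subunit and 0.06 for 46 large-subunit genes. The P-stalk median was 0.01 over the loci of deposited lists, with 2 of 3 changes above 0. At the gene ends of equal-length lists it was 0.09. All 18 genes of the Diamond-Blackfan anaemia list had a gene-end peak in all 6 libraries, also among the 50000 strongest, and Rpl5 was the 1 of them called in any comparison. Of the 84 genes, 29 hold an annotated snoRNA, Rpl5 among them, and 27 of these (93.1%) had a gene-end peak in all libraries, against 51 of 55 without (92.7%). Their gene-end median on the deposited lists was 0.06, against 0.04 for genes without a snoRNA. Rps3a1, Rpl7l1 and Rpl22l1, whose symbols carry a digit after the letters, are not among the 84. They had gene-end changes of 0.07, -0.05 and 0.07 on the deposited lists, with adjusted p of 0.881, 0.880 and 0.870 (limma).

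Other genes of the translation machinery were widely open too, and none of those listed was called. Fau, which encodes a small-subunit protein fused to a ubiquitin-like protein, had a gene-end peak in all 6 libraries and a log2 change of -0.04 at the gene ends of the deposited lists (adjusted p = 0.954, limma). Of 78 mitochondrial ribosomal protein genes 76 had a gene-end peak in all libraries, as had all 8 elongation genes, all 30 initiation genes, all 28 ribosome assembly genes found, 10 of 11 genes of RNA polymerase I and its factors, and 14 of 16 genes of the control of ribosomal protein mRNA and of ribosomal stress, against 66.0% of all protein-coding genes. None of these genes was called in any of the 4 comparisons, where 0% and 0.411% of all genes were called at the gene ends and 0.968% and 1.28% at the loci, on deposited and equal-length lists in that order. In lists of this size 0 calls is close to those shares. Their gene-end medians on the deposited lists were 0.03 for the mitochondrial, 0.06 for the elongation, 0.03 for the initiation, 0.04 for the assembly, 0.03 for the RNA polymerase I and 0.09 for the control and stress genes. On equal-length lists the locus median of the control and stress genes was -0.11, and on deposited lists it was 0.02.

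The sequences at the starts set the ribosomal protein genes apart in several letters. The 300 bases from 250 before to 50 after each listed start were searched on both strands in 76 windows of 64 ribosomal protein genes and in 21045 windows of all protein-coding genes. CCGGAAG was in 34.2% of ribosomal protein windows and in 11.7% of all windows, and the palindrome TCTCGCGAGA was in 9.21% and 0.679%. The palindrome occurred in Rps6, Rps19, Rps28, Rpl10a, Rpl12 and Rpl26. AAGATGGC, the core of the YY1 motif, was in 9.21% of ribosomal protein windows and 3.07% of all windows. No member window held it joined to CCGGAAG by shared letters. A gene can have several windows. Of the 64 genes, CCGGAAG was in 25, the palindrome in 6 and AAGATGGC in 5. GGGCGG (56.6%, against 46.7%), CCAAT (31.6%, against 38.5%) and TATAAA (9.21%, against 12.7%) were closer to the share of all windows.

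A run of 5 or more C or T held the listed start in 28.9% of ribosomal protein windows, against 8.67% of all windows, and the listed start was a C in 30.3%, against 13.9%. The run was 10 bases long at Rps6, as shown above, and reached 21 bases at Rpl7a. Listed starts can lie some bases from the start used in macrophages, so a window without the run says only that these letters do not hold the listed start. Median GC content was 57.8% in ribosomal protein windows and 56.7% in all windows, and the median number of CpG was 21 and 13. Of the 5 genes with an uncovered start, the window of Rpl32l had the lowest GC content, 34.7%, and 3 CpG, and that of Rps27rt had 44.3% and 9 CpG. The window of Rpl10l had 52.0% and 13 CpG, and that of Rpl37rt had 64.3%, above the median of the members, and 12 CpG. No separate value was taken for Rpl3l, so these genes show no common composition.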

How the data were processed

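One MACS2 broad peak list per library was deposited, for 3 old and 3 young Omni-ATAC libraries read as paired ends of 125 bp. Tools listed without roles in the submitters' processing notes are MACS2 2.1.0.20140616, Picard, SAMtools, Bowtie2 2.2.6, cutadapt 1.14 and Trim Galore 0.4.4, on the build mm10. For duplicate removal, the shift of read ends and masking, no setting is given in the sources used here. Each deposited peak carries a score (10 times its −log10 q, as a whole number), the authors' fold enrichment (a ratio to the library's own background), and the authors' −log10 p and −log10 q, which served only to rank and filter peaks within a list. The lowest deposited −log10 q was 1. Read depth is unknown, so no counting interval can be given.

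Gene spans and starts came from RefSeq of GRCm38.p6, whose primary chromosomes are those of mm10. The members, the gene lists and the tests were chosen with earlier results of these data known. Covered base pairs were summed within 1 kb of the gene ends, or over the gene with 10 kb on each side, expressed relative to the sum over all genes in that library, brought to the mean sum, and tested as log2(bp + 200) with limma 3.58.1 (trend, robust) in R 4.3.3, on the deposited lists and on the 50000 peaks of highest −log10 q per library. Neighbouring genes share peaks, so genes are not independent. The limma step was tested on simulated data with known changes. These were drawn independently for each gene, so shared peaks and differences in list length were not part of that test. Overlap (1 bp or more), ranks and motifs were computed with scipy 1.17.1, pandas 2.3.3 and numpy 2.4.6 under Python 3.11.15, and plotted with matplotlib 3.10.9.

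Members were named where they passed an adjusted p of 0.05, had one of the 3 smallest p per direction and comparison, had the widest or narrowest gene-end cover or lacked a gene-end peak, or belonged to a fixed set (Rps6, Rps14, Rps19, Rpl5, Rpl11, Rplp0, Rplp1, Rplp2, Rpsa, Rpl3l, Rpl10l, Rpl39l). Rps26, Rpl27, Rpl7a and the genes holding the palindrome were named after their values were seen. Alternatives were each library left out in turn, a replicate block, quantile normalization or no scaling, no filter, a pseudocount of 50 bp, other windows and flanks, a −log10 q of 2 or 5, and 20000 peaks. A window around the listed starts was added after the data were seen. Chromosomes other than 1 to 19 and X were not used.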

Additional observations from a re-analysis of the deposited data

How the results depend on the processing

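The count of ribosomal protein genes called at the gene ends was 0 under all alternatives on both kinds of list, and at the loci of equal-length lists as well. At the loci of the deposited lists the 1 call (Rpl5) became 0 with a −log10 q of 5 or more, with 5 kb flanks, without scaling and without the filter, and 0 to 1 when single libraries were left out. Over all genes, the locus calls on deposited lists were 66 higher and 98 lower in old libraries, with 3 and 6 at a −log10 q of 5, 2 and 13 without scaling, 0 and 4 without the filter, 95 and 170 with the replicate block, and 15 to 88 and 14 to 253 with single libraries left out. At the gene ends of deposited lists they were 0 and 0, with 1 and 8 without the filter and at most 3 and 1 otherwise. On equal-length lists they were 35 and 10 at the gene ends and 121 and 63 at the loci, with 0 in each under the replicate block, 105 and 77 and 164 and 91 without the filter, 43 and 46 and 1 and 4 without scaling, and 32 and 44 at the gene ends with 20000 peaks. With single libraries left out they were 0 to 34 and 3 to 31 at the gene ends and 0 to 88 and 3 to 25 at the loci. The gene-end median of the members was 0.031 on deposited lists with a 500 bp window, -0.071 without scaling and 0.051 to 0.078 with single libraries left out. On equal-length lists it was 0.025 with 500 bp, 0.023 around the gene start, 0.021 around the listed starts (chosen after seeing the data), -0.059 without scaling and 0.029 to 0.068 with libraries left out. In the first 3 of these settings the median of all genes was 0.028, 0.026 and 0.023, and with 20000 peaks it was 0.051, against 0.046 for the members, so the members did not stand above all genes there. The locus median on deposited lists was 0.093 with a −log10 q of 2 and 0.091 with 5, -0.10 without scaling and 0.023 to 0.069 with libraries left out, and on equal-length lists it was -0.052 without scaling and 0.025 (without Old 2) to 0.082 (without Old 1) with libraries left out, and 0.026 without Young 3. Leaving out the scaling also moved the median of all genes, to -0.11 and -0.085 at the gene ends and to -0.14 and -0.11 at the loci, on deposited and equal-length lists in that order. Single genes reversed in 4 settings: Rps7 at the locus (0.10 with a −log10 q of 5), Rpl11 at the locus of equal-length lists (-0.081 with 20000 peaks) and Rplp0 there (0.093 with 20000 peaks and 0.024 with 5 kb flanks). The other 344 of the settings for single named genes kept direction and side of the threshold, and 8 kept the direction but lost the call, all at Rpl5. The cause of these moves was not tested. Ranked by fold enrichment in place of −log10 q, the median rank of the strongest peak averaged over libraries was 4.34% in old and 4.25% in young libraries, against 2.25% and 1.67%. Deviations of same-numbered libraries at the gene ends correlated at 0.127, 0.127 and -0.107 on deposited lists and at 0.038, 0.055 and 0.024 on equal-length lists. At the loci the correlations were 0.143, 0.136 and -0.163 on deposited lists and 0.044, 0.052 and 0.03 on equal-length lists. These values do not settle whether the replicate numbers pair the libraries. With the replicate block 0, 0, 1 and 0 members were called in the 4 comparisons. Wide, strong peaks limit what can be seen: a covered length cannot show a change of height within a peak called in every library.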

Other observations

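Ribosomal protein genes are known for their many processed pseudogenes, and the RefSeq annotation holds 324 with such symbols. A peak lay in 6, 9 and 5 of them in Old 1, 2 and 3 and in 5, 4 and 8 in Young 1, 2 and 3, which is 1.54% to 2.78% in old and 1.23% to 2.47% in young libraries. Among 10184 other pseudogenes the share was 7.24% to 8.27% in old and 7.55% to 8.09% in young libraries. The sets were not matched for length, so these shares are not like for like. Inside the spans of the 84 ribosomal protein genes themselves a peak was called in 80 genes in each old library and in 81, 80 and 80 genes in Young 1, 2 and 3. How reads that match several places were treated is not given in the sources used here.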
